A study of Rattus norvegicus and Bos taurus with 6 samples.

Results

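Nuclei of thoracic aortic perivascular adipose tissue (taPVAT) were compared with nuclei of subscapular brown adipose tissue (BAT) in the rat. Every deposited nucleus of the 2 libraries was taken, 2708 from taPVAT and 2699 from BAT, which made 5407 of the 19424 nuclei in the 6 libraries of the series. Both depots came from male Dahl salt-sensitive rats (SS/HsdMcwiCrl) that ate a normal diet and were housed at 22 °C and 50% humidity. The fat was snap frozen, taPVAT after removal from the aorta and BAT after white fat had been trimmed off, and the rats' age and the number of animals in a library were not given in the sources used here. Nuclei were fixed and barcoded with the combinatorial Parse Evercode chemistry in the same batch. Each depot was 1 library, so no difference below has a biological replicate check, and every interval covers counting error only. Nuclei of each depot had passed through 3 first-round barcoding wells and 2 sublibraries, which are technical splits of that library.

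Brown fat burns fatty acids for heat: sympathetic noradrenaline raises cAMP in the adipocyte, lipid droplets are broken down, and uncoupling protein 1 lets protons back across the inner mitochondrial membrane without making ATP. The fat around the thoracic aorta is brown in the rat and also lies against a vessel wall, where it releases factors that act on vascular tone. A depot holds adipocytes beside endothelial cells, mural cells (pericytes and smooth muscle), adipocyte stem and progenitor cells (ASPCs), macrophages and lymphocytes.

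The deposited counts held 5100216 unique molecular identifiers (UMIs) in taPVAT and 6317970 in BAT, with medians of 1246 and 1706 per nucleus. UMIs of each gene were summed over the nuclei of a depot and scaled to counts per 1000000 (CPM), and the ratio taPVAT over BAT was taken for the 10399 of 38697 genes with at least 100 UMIs in the pair. These genes held 95.3% of the UMIs of taPVAT and 96.0% of those of BAT. In such sums, fewer nuclei of a type and less RNA per nucleus cannot be told apart. No barcode was shared by the libraries (0 of 5407). Both libraries carried brown fat markers, though only the label of BAT names brown fat. Of 8 brown adipocyte markers 7 passed the minimum in the pair, and the list summed to 5980 CPM in taPVAT and 7040 CPM in BAT. The marker that did not pass, Elovl3, had 4 UMIs in taPVAT and 0 in BAT.

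Most genes differed little between the depots. The ratio lay within 1.5-fold for 9384 genes (90.2%), and the median log2 ratio was 0.06, with quartiles at -0.12 and 0.26. At least 2-fold higher in taPVAT were 276 genes, or 2.65% of those compared, and at least 2-fold higher in BAT were 31, or 0.298% (2.95% in either direction). With median-of-ratios size factors, which moved the median log2 ratio to -0.10, the split was 197 against 51. Past 4-fold were 21 genes higher in taPVAT and 2 higher in BAT. The genes past 2-fold were mostly of low level, with 132 of the 276 and 17 of the 31 among the 2602 genes with 100 to 191 UMIs, and 25 and 4 among the 2596 with 909 UMIs or more. Together the 276 genes took 1.46% of the UMIs of taPVAT and 0.549% of those of BAT.

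**Figure D1:**
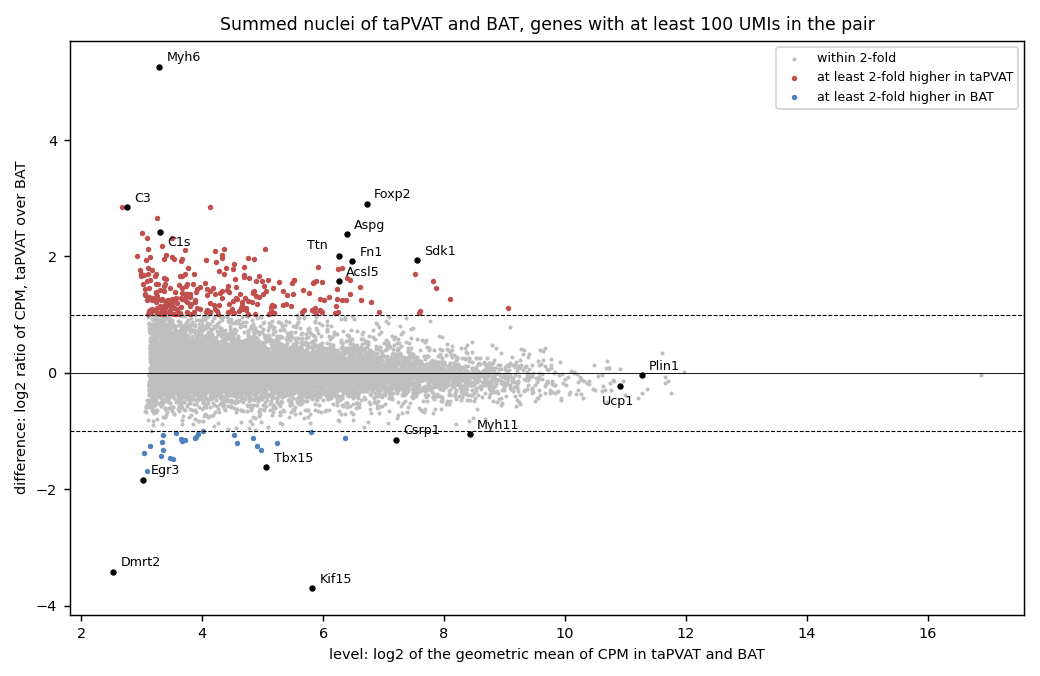
Each point is 1 of 10399 genes, with the level (log2 of the geometric mean of CPM) on the x axis and the difference (log2 ratio of CPM, taPVAT over BAT) on the y axis. Red points are the 276 genes at least 2-fold higher in taPVAT, blue points the 31 at least 2-fold higher in BAT, and dashed lines mark 2-fold; the abundant brown fat genes Ucp1 and Plin1 lie close to 0.

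The gene furthest towards BAT among the leading genes was carried by a single barcoding well. Kif15 encodes a mitotic kinesin, and it had 80 UMIs in taPVAT (15.7 CPM) against 1291 in BAT (204 CPM), a 13-fold difference with a 95% interval of 10.4 to 16.5. By first-round well, its level was 14.9, 16 and 16 CPM in taPVAT and 551, 20.1 and 15.8 CPM in BAT. BAT well 1 thus held 1215 of the 1291 UMIs (94.1%), spread over 554 of its 971 nuclei with at most 16 in a nucleus, and over both sublibraries (561 and 654 UMIs). Without that well the log2 ratio moved from -3.70 to -0.24. The excess was there in each class of nuclei: in BAT well 1 the level was 400.0 CPM in adipocyte-like, 681 in endothelial-like and 679 in mural-like nuclei, and in BAT well 2 it was 12.2, 39.8 and 16.7 CPM. In the other rat libraries made with the same chemistry, Kif15 stood at 32.6 CPM in mesenteric PVAT and 35.5 CPM in retroperitoneal fat. The 10 neighbouring genes on chromosome 8 with at least 100 UMIs, from Abhd5 (130877834 to 130903947, GRCr8) to Sacm1l, had log2 ratios between -0.59 and 0.59, and Kif15 itself lies at 131479340 to 131550209. The other 9 cell cycle genes that passed the minimum were all within 2-fold.

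Well by well, few other genes past 2-fold came within 1.5-fold when a single well was left out. All 3 taPVAT wells lay above all 3 BAT wells for 256 of the 276 genes higher in taPVAT, where 14.3% of all genes did so, and all 3 BAT wells lay above for 27 of the 31 genes higher in BAT, where 7.75% of all genes did. These genes were picked by their ratio over the same wells, so the counts are high by construction and test nothing. Past 2-fold without any 1 of the 6 wells were 176 of the 276 and 12 of the 31. Leaving out 1 well brought Ubb and ENSRNOG00000078188 within 1.5-fold among the genes higher in taPVAT, and Kif15 and ENSRNOG00000076556 among those higher in BAT. Kif15 was also the only gene past 2-fold with over 75% of its UMIs in the higher depot in 1 well.

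**Figure D2:**
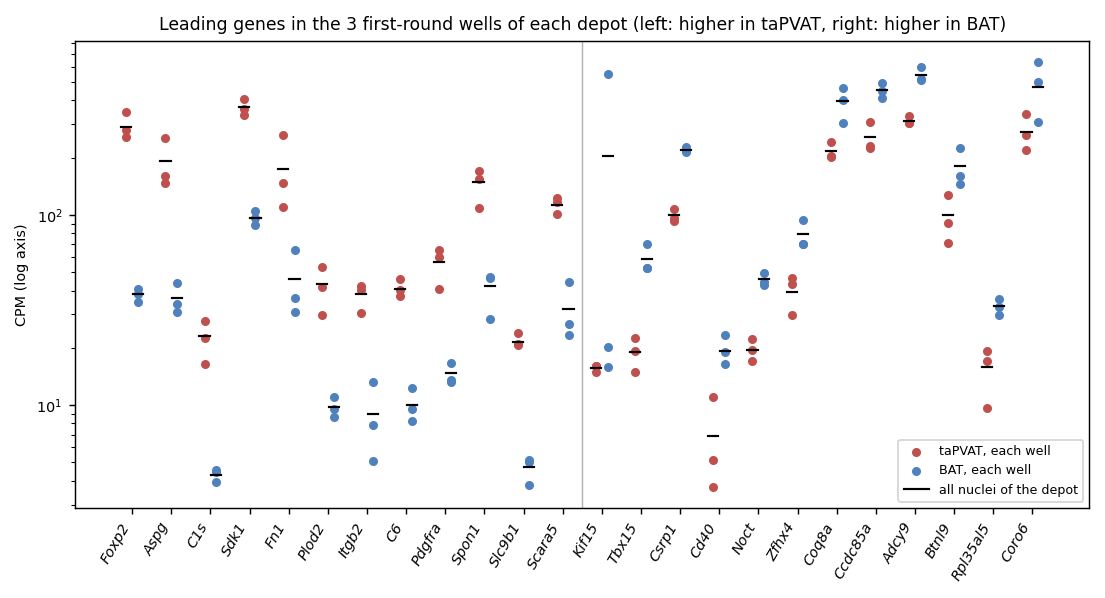
CPM on a log axis for the 12 leading genes of each direction, with red points for the 3 first-round wells of taPVAT, blue points for those of BAT and a bar for all nuclei of the depot. For Kif15 a single BAT well at 551 CPM stands above the 5 other wells, which lie between 14.9 and 20.1 CPM, whereas for Foxp2 the wells of each depot lie together.

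Foxp2, a forkhead transcription factor, led the genes higher in taPVAT. It had 1474 UMIs in taPVAT and 243 in BAT (289 against 38.5 CPM), 7.51-fold higher with an interval of 6.56 to 8.64. The wells stood at 347, 280 and 256 CPM in taPVAT and at 38.6, 40.6 and 34.8 CPM in BAT, so that they did not overlap. Its busiest nucleus held 1.49% of the taPVAT UMIs. Foxp2 also reached 211 CPM in mesenteric PVAT and 219 CPM in retroperitoneal fat, which left BAT the lowest of the 4 rat depots processed with this chemistry. Aspg, an asparaginase, followed with 980 UMIs against 232 (192 against 36.7 CPM), 5.23-fold higher with an interval of 4.53 to 6.06. Its wells stood at 147, 253 and 161 CPM in taPVAT and at 44.0, 33.9 and 31.0 CPM in BAT. In contrast to Foxp2, Aspg was low in the other depots, at 6.04 CPM in mesenteric PVAT and 15.4 CPM in retroperitoneal fat.

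The other 10 leading genes on the taPVAT side were between 3.5-fold and 5.37-fold higher. Sdk1, an adhesion molecule of the immunoglobulin superfamily, was 3.83-fold higher (367 against 95.9 CPM). Fn1, which encodes fibronectin, was 3.78-fold higher, at 147, 111 and 261 CPM in the taPVAT wells and 30.9, 65.1 and 36.7 CPM in the BAT wells. Plod2, a collagen lysyl hydroxylase, was 4.40-fold higher and Pdgfra, the receptor that marks ASPCs, 3.86-fold. The complement proteins C1s and C6 were 5.37-fold and 4.09-fold higher, and Itgb2, the beta chain of leukocyte integrins, 4.26-fold. Spon1, Slc9b1 and Scara5 (3.5-fold, 4.54-fold and 3.51-fold) completed the list.

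The leading genes on the BAT side after Kif15 differed less. Tbx15, a T-box transcription factor with a positional pattern in adipose tissue, had 97 UMIs in taPVAT and 370 in BAT, 3.08-fold higher in BAT (2.46 to 3.89), with wells at 19.4, 22.6 and 14.9 CPM against 69.9, 52.5 and 52.5 CPM. Csrp1, a LIM-domain protein of smooth muscle, was 2.22-fold higher in BAT (2.00 to 2.46), with wells at 93.0, 96.7 and 107 CPM against 227, 219 and 215 CPM. Cd40, Noct, Zfhx4 and the ribosomal protein-like Rpl35al5 were 2.79-fold, 2.38-fold, 2.03-fold and 2.09-fold higher in BAT. The last 5 (Coq8a, Ccdc85a, the adenylyl cyclase Adcy9, Btnl9 and Coro6) stayed short of 2-fold, between 1.71-fold and 1.84-fold. Dmrt2, a doublesex-related transcription factor, was singled out after its values were seen: it had 9 UMIs in taPVAT and 119 in BAT, with wells at 2.98, 0.51 and 2.21 CPM against 17.3, 19.3 and 20.3 CPM, but 29.4% of the BAT UMIs lay in 10 nuclei.

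The reference windows upstream of 3 of these genes are shown, 1 higher in taPVAT and 2 higher in BAT, to give the regulatory sequence at the start of each. Each is the 250 bases before the RefSeq start on the plus strand of GRCr8, in lower case, with matches on either strand to the TATA box (TATAAA), the CCAAT box (the letters of its name) or the GC box (GGGCGG) in capitals. Of 33469 rat promoter windows of that length, 12.9%, 34.0% and 30.5% held these motifs. The Plod2 window held 2 GC box matches, the Tbx15 window 2 CCAAT box matches, and the Csrp1 window none.
Plod2, higher in taPVAT, chr8:101964068-101964317: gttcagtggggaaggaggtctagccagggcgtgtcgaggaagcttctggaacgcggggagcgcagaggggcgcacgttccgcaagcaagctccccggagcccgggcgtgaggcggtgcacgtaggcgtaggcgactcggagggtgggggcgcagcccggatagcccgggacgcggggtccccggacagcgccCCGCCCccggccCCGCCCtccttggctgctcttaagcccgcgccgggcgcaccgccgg
Tbx15, higher in BAT, chr2:189265123-189265372: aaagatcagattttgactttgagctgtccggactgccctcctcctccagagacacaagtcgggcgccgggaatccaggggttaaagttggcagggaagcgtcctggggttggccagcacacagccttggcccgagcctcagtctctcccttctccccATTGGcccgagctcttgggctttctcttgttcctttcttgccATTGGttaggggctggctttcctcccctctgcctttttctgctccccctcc
Csrp1, higher in BAT, chr13:49709678-49709927: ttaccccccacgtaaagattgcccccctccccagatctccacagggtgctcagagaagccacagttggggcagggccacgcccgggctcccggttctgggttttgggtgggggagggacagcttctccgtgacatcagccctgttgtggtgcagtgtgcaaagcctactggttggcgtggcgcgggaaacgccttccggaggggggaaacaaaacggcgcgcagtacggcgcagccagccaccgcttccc

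The genes of heat production and fat handling were mostly within 2-fold between the depots, as most genes were, and part of the thermogenic genes were somewhat lower in taPVAT. None of 21 thermogenic genes was past 2-fold, and the list's median log2 ratio was -0.02 beside 0.06 for all genes. For 8 of the 21 every BAT well lay above every taPVAT well, where 7.75% of all genes did so, and for 3 the order was the opposite, where 14.3% did. The list summed to 12547 CPM in taPVAT and 14502 CPM in BAT. Ucp1, the uncoupling protein, had 9087 UMIs in taPVAT and 13092 in BAT (1782 against 2072 CPM), a ratio of 0.860 with an interval of 0.837 to 0.883. Its wells ran from 1658 to 1891 CPM in taPVAT and from 1663 to 2383 CPM in BAT and overlapped. The 8 were Esrrg, Pdk4, Ppargc1b, Cidea, Pank1, Ppara, Letmd1 and Prdm16, with ratios from 0.745 (Cidea) to 0.910 (Pank1). Cpt1b, the carnitine palmitoyltransferase that lets fatty acids into mitochondria, was also lower in every taPVAT well, with a ratio of 0.786, and Dio2, the deiodinase that makes active thyroid hormone, had a ratio of 1.21 with overlapping wells. Cpt1b was the only 1 of 24 fatty acid oxidation genes with that order of wells. In 9 of the 24 every taPVAT well lay above every BAT well, and 20 had a log2 ratio above 0. Esrrg (0.817), Ppargc1b (0.772), Ppargc1a (1.08) and Kcnk3 (0.95) also lay near 1. Nor was any member past 2-fold among 11 lipid droplet proteins, 13 lipolysis genes, 13 triglyceride synthesis genes, 24 fatty acid oxidation genes, 24 genes of glucose uptake and glycolysis, 73 nuclear-encoded subunits of the respiratory chain or 13 mitochondrially encoded genes. Only 2.95% of all genes were past 2-fold in either direction. A count of 0 in the shorter of these lists, the thermogenic list among them, therefore says little. The de novo lipogenesis genes, 16 in number, had a median log2 ratio of 0.21. Within them Fasn, the fatty acid synthase, stood at 718 against 418 CPM (1.72-fold) and Acaca at 734 against 556 CPM (1.32-fold). The single exception in fat handling was Acsl5, a long-chain acyl-CoA synthetase, which was 2.97-fold higher in taPVAT (2.58 to 3.42), whereas Acsl1 of the same family had a ratio of 0.821.

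Several signalling lists that bear on vessels and nerves had no member past 2-fold. Over all genes 2.95% were past 2-fold in either direction, so that a count of 0 in lists of this size says little about them. Other such lists lay above that share. Among these were the neuregulin and ErbB genes (2 of 9), PDGF genes (1 of 7) and axon guidance genes (4 of 41), higher in taPVAT. None was past 2-fold among all 28 adrenergic and cAMP genes, 20 insulin signalling genes, 17 nitric oxide and cGMP genes, 9 renin-angiotensin genes, 14 adipokines and their receptors, 18 steroid receptor and glucocorticoid response genes, 13 FGF genes and 18 glutamate receptor genes. Among the adrenergic genes, Adra1a stood at 1182 against 1273 CPM and Adcy9 was the lowest, at 312 against 543 CPM. The adipokine Vegfa was at 1499 against 1373 CPM and the brown fat factor Nrg4 at 456 against 407 CPM. Of 14 mechanosensitive channels, Piezo2 (48.0 against 15.5 CPM, 3.10-fold) and Trpv4 (2.67-fold) were past 2-fold while Piezo1 had a ratio of 1.19. Egr3, an immediate early gene (4.31 against 15.4 CPM), and P2rx1, an ATP-gated channel of smooth muscle (4.71 against 15.2 CPM), were the single members of their lists at least 2-fold higher in BAT.

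Positional genes parted in both directions. Of 12 positional transcription factors other than the HOX genes, Foxp2, Eya1, Gata6 and Prrx1 were past 2-fold in taPVAT and Tbx15 in BAT. The shares over all genes were 2.65% and 0.298%. Eya1 stood at 20.1, 23.2 and 22.1 CPM in the taPVAT wells and at 8.62, 7.5 and 3.8 CPM in the BAT wells, 3.15-fold higher. Meox2 was within 2-fold, at 160.4 against 201 CPM. Each of the 4 HOX genes that passed the minimum lay above 0 on the log2 scale, and Hoxa9, 2.24-fold higher, was the one past 2-fold. Hoxa3 stood at 93.1 against 57.8 CPM (1.61-fold).

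Matrix and complement genes held the largest groups higher in taPVAT. Over all genes compared, 2.65% were past 2-fold in taPVAT and 0.298% in BAT. Complement, the plasma cascade that tags and lyses targets, had 8 of 10 genes past 2-fold and a median log2 ratio of 1.46. C3, the central component, had 93 UMIs against 16 (7.20-fold, 4.21 to 13.1), with wells at 12.7, 18.5 and 22.1 CPM in taPVAT and 3.18, 2.76 and 1.27 CPM in BAT. C4b had 3993 UMIs against 2293, or 783 against 363 CPM (2.16-fold), and C7, C1r and C2 were 2.39-fold, 3.35-fold and 2.52-fold higher. Of 26 genes of matrix remodelling 9 were past 2-fold, with Plod2, Fn1, Vcan (3.74-fold) and Fbn1, which encodes fibrillin 1 (333 against 102 CPM, 3.26-fold), in front; 2 of the 9 were separate gene entries with the symbol Timp2. Of 34 collagen genes 5 were past 2-fold (Col14a1, Col1a1, Col1a2, Col6a5 and Col3a1), while the basement membrane chains Col4a1 and Col4a2 had ratios of 0.875 and 0.826. Antigen presentation genes gave Ciita (4.38-fold) and Cd74 (2.87-fold), Wnt genes Sfrp1, Ror2 and Tcf7, and axon guidance genes Slit2 (2.90-fold), Sema3c, Sema3d and Epha3 of 41. Over the 44 lists, 52 of 782 genes were past 2-fold in taPVAT and 4 in BAT, and 21 lists had no member past it.

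**Figure D3:**
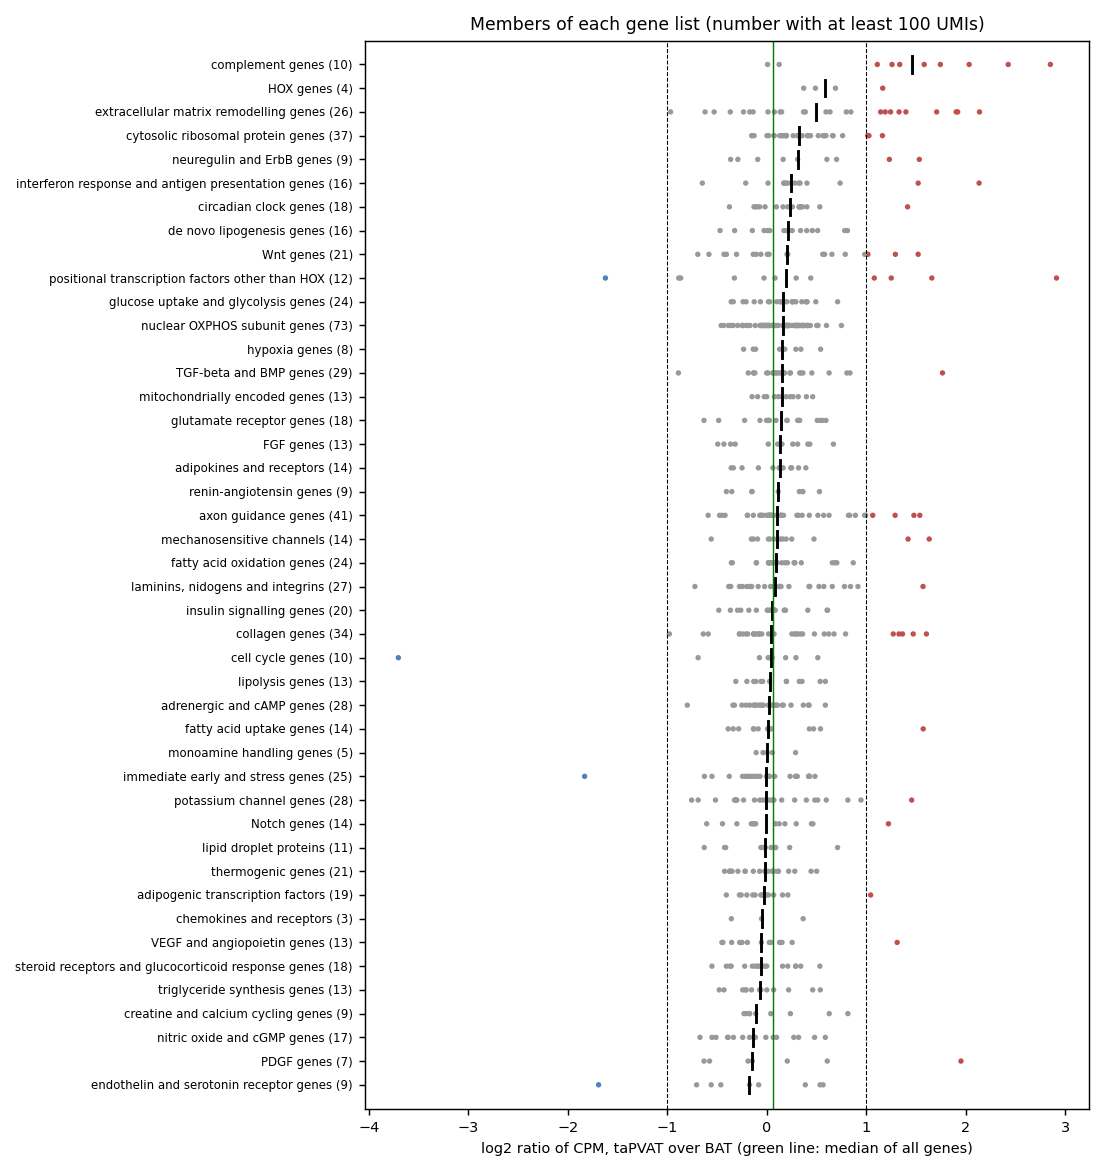
Each point is a gene, placed by its log2 ratio of CPM (taPVAT over BAT), and each row is a gene list with the number of its genes that had at least 100 UMIs. Black ticks are list medians, the green line is the median of all genes (0.06) and dashed lines mark 2-fold; the complement list stands furthest right, with 8 of 10 genes past 2-fold.

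Markers of other cell types moved with these groups. Of all genes compared, 2.65% were past 2-fold in taPVAT. The ASPC list had 8 of 12 markers past 2-fold and summed to 1880 CPM in taPVAT (interval 1843 to 1918) and 986 CPM in BAT (962 to 1011). The macrophage list had 6 of 8 past 2-fold and summed to 603 against 270 CPM. The mural list ran the other way, at 904 against 1279 CPM, and so did the endothelial list, at 2287 against 2685 CPM, with none of its 13 markers past 2-fold. The lymphocyte list, most of whose UMIs came from Ebf1, a gene also used by adipocytes, summed to 3334 against 3598 CPM. Ebf1 alone stood at 3191 against 3520 CPM, so the sum says little about lymphocytes. Of the list's 5 markers that passed the minimum, 2 were past 2-fold in taPVAT and 0 in BAT. Their median log2 ratio was 0.64. None of the 9 mesothelial markers passed the minimum, and the list summed to 30.4 against 14.4 CPM, with Krt19 at 8 and 0 UMIs.

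Nuclei were therefore sorted into classes, by clustering the 2637 taPVAT and 2627 BAT nuclei that passed the study's filters together and naming clusters from marker genes. Of 17 clusters 13 were named. Adipocyte-like nuclei made 42.9% of taPVAT (95% exact binomial interval 41.0 to 44.8) and 53.1% of BAT (51.1 to 55.0), and endothelial-like nuclei 23.1% and 27.9%. ASPC-like nuclei made 10.7% of taPVAT (9.58 to 12.0) and 4.64% of BAT (3.87 to 5.52), macrophage-like nuclei 6.60% and 1.90%, and lymphocyte-like nuclei 2.81% and 1.10%. Mural-like nuclei were at 7.13% and 8.07%, with overlapping intervals. Clustering without the 307 genes past 2-fold, an alternative chosen after the data were seen, gave 10.2% and 4.95% ASPC-like nuclei and 5.92% and 1.75% macrophage-like nuclei. Its clusters were still named from all markers, those past 2-fold included. Unnamed nuclei made 15.3% of taPVAT and 13.1% of BAT there, against 6.11% and 1.64% in the main clustering. With each nucleus named alone, endothelial-like nuclei made 14.0% and 18.1%, macrophage-like 4.13% and 1.18%, mural-like 3.94% and 4.64%, ASPC-like 8.57% and 3.24% and adipocyte-like 57.5% and 67.3%, so that the levels depended on the naming. Mural-like nuclei were at 7.36% and 7.19% in the clustering without the genes past 2-fold, the reverse order, with overlapping intervals. All these other namings were added for the shares, and for the classes other than adipocyte-like, after the data were seen. With 1 library a depot these shares have no spread between samples.

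**Figure D4:**
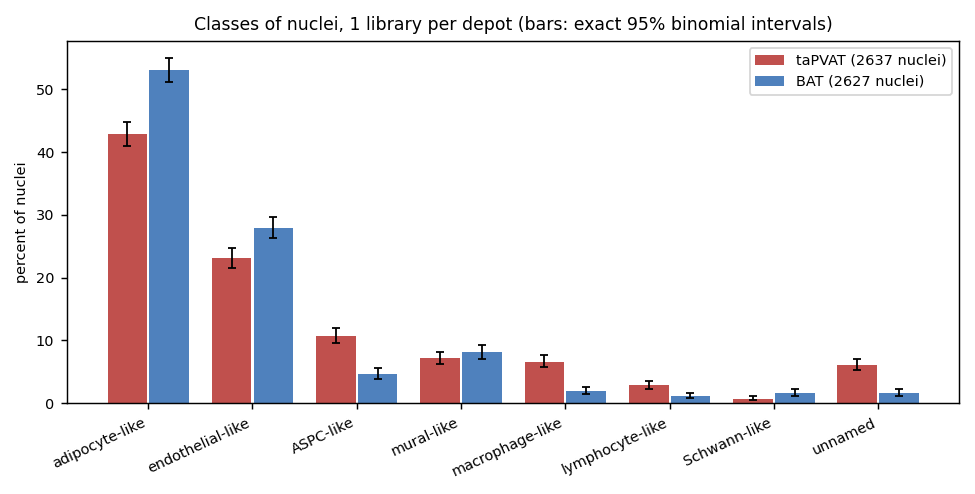
Percent of nuclei in each class for taPVAT (red) and BAT (blue), with exact 95% binomial intervals that cover counting error only. ASPC-like, macrophage-like and lymphocyte-like nuclei took a larger share of taPVAT, and adipocyte-like and endothelial-like nuclei a larger share of BAT.

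With the class shares of BAT given to both depots, 104 genes were past 2-fold in taPVAT and 24 in BAT. It was again an alternative added after the data were seen, and 100 of the 276 genes were still among the 104. This setting used only nuclei that passed the study's filters. Those filters alone gave 294 and 24 genes, against 276 and 31 over all nuclei. With the class shares of BAT in both depots, 7 complement genes were past 2-fold, against 8 over all nuclei. Matrix remodelling had 4 against 9 and the collagens 1 against 5. These counts do not follow single members between the settings. Foxp2 and Aspg were nearly unmoved (log2 ratios of 2.85 and 2.52), whereas Pdgfra moved from 1.95 to 1.21 and Col1a1 from 1.47 to 0.84.

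Within adipocyte-like nuclei, 51 of 6540 genes (0.78%) were at least 2-fold higher in taPVAT and 11 (0.168%) in BAT. The same cluster held the largest part of this class in both depots (479 of 1131 nuclei in taPVAT and 796 of 1394 in BAT). Foxp2 had 708 UMIs against 116 here, 8.46-fold higher (6.94 to 10.4), and Aspg 660 against 164, 5.58-fold higher (4.69 to 6.66). Acsl5 was 4.57-fold higher (3.67 to 5.73), Nav3 3.5-fold, the aldehyde oxidase Aox3 3.16-fold and the potassium channel partner Kcnip1 2.83-fold. Genes of matrix, muscle and complement were also among those furthest towards taPVAT in this class. They were Fn1 (5.38-fold), Col1a1 (4.57-fold), Ttn (4.20-fold), C6 (3.66-fold) and Col3a1 (3.38-fold). Whether their UMIs came from adipocytes was not tested. Aspg and Acsl5 were among the leading genes of an adipocyte cluster with 148 nuclei in taPVAT and 123 in BAT, and Kcnip1 and Aox3 among those of another, with 261 and 191, and both clusters took a larger part of the class in taPVAT. How far the ratios follow this mix was not tested. In the clustering that left out genes past 2-fold, Foxp2, Aspg, Acsl5 and Kcnip1 were 9.61-fold, 5.64-fold, 5.09-fold and 3.14-fold higher in taPVAT. On the BAT side of this class were Tbx15, at 38 UMIs against 143 (2.72-fold), and Zfhx4, at 73 against 251 (2.48-fold), beside Kif15. The thermogenic list had a median log2 ratio of 0.00 over the 21 genes kept in this class, with none past 2-fold, and Ucp1 stood at 2545 against 2842 CPM. Plin1, the coat protein of the lipid droplet, was level at 3476 against 3469 CPM, while Fasn (930.0 against 481 CPM) and Plin2 (290 against 162 CPM) had ratios of 1.93 and 1.79.

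Adipocyte transcripts were counted in the nuclei of every other class as well. Plin1 stood at 1555 CPM in endothelial-like nuclei of taPVAT and at 1428 CPM in those of BAT, and 42.3% and 39.5% of these nuclei had a UMI of it, against 92.0% and 95.4% of adipocyte-like nuclei. The median UMIs per nucleus were 1016 and 1248.5 in endothelial-like and 1682 and 2006.5 in adipocyte-like nuclei. Aspg in taPVAT was highest in adipocyte-like nuclei (288 CPM) and stood between 91.3 and 156 CPM in the other 5 classes. Foxp2 in taPVAT was highest in ASPC-like nuclei (517 CPM), followed by adipocyte-like (309 CPM) and macrophage-like nuclei (206 CPM), and its level in BAT was highest in ASPC-like nuclei too (123 CPM). After each nucleus was thinned to 500 UMIs, which left out 386 taPVAT and 115 BAT nuclei, 11.5% of taPVAT and 1.74% of BAT nuclei had a UMI of Foxp2, against 28.9% and 7.15% before thinning. For Ucp1 the thinned shares were 39.0% and 44.7%.

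Within ASPC-like nuclei, 53 of 1541 genes (3.44%) were at least 2-fold higher in taPVAT and 27 (1.75%) in BAT, from 283 and 122 nuclei. With each nucleus named alone, 32 of 630 genes were higher in taPVAT and 32 in BAT, so the tilt towards taPVAT depended on the naming. Higher in taPVAT were Runx1, a transcription factor, at 180 UMIs against 9 (8.14-fold, 4.19 to 18.1), Plod2 at 99 against 5 (8.06-fold, 3.34 to 25.4), the Wnt antagonist Dkk2 at 109 against 6 (7.39-fold, 3.29 to 20.6) and Piezo2 at 125 against 8 (6.36-fold, 3.13 to 15.1). Sdk1 was 3.36-fold and Foxp2 4.21-fold higher. Of the genes that were past 2-fold over all nuclei, Col1a1 and Col3a1 were level within this class (1.06-fold and 1.05-fold) and C7 had a ratio of 0.890, while Fn1 was 2.58-fold and C4b 2.06-fold higher. Tbx15 was at 17 UMIs in taPVAT and 58 in BAT, 8.38-fold higher in BAT but with too few UMIs to be among the 1541 genes. Also higher in BAT were the basement membrane collagen Col4a3 (5.65-fold), Steap4 (3.75-fold), Kcnip4 (3.45-fold), Igfbp5 (2.98-fold), Col15a1 (2.48-fold) and Abca8a (2.44-fold). Of 19 collagen genes kept in this class 2 were past 2-fold in taPVAT and 7 in BAT, with a median log2 ratio of -0.45.

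Endothelial-like and mural-like nuclei differed in fewer genes towards BAT than towards taPVAT in the former (8 against 56 of 4824, 0.166% and 1.16%) and in more in the latter (28 against 13 of 1903, 1.47% and 0.683%). Mural-like nuclei held 345348 UMIs in taPVAT and 559721 in BAT, so genes high in BAT passed the minimum more easily there. The 56 became 33 when clustering left out the genes past 2-fold and 28 when each nucleus was named alone from its own marker UMIs, and with the latter the 13 became 3. Among genes with a symbol, the 56 were led by the muscle genes Myh6 (124 UMIs against 1) and Ttn (300 against 28, 15.8-fold). Foxp2 (5.77-fold), Kcnip1 (4.15-fold) and Aspg (4.92-fold), also higher in adipocyte-like nuclei of taPVAT, came next. Whether the UMIs of these genes came from endothelial cells was not tested. Csrp1 was 2.19-fold and 2.18-fold higher in BAT within endothelial-like and mural-like nuclei, but at 24.5 against 19.2 CPM in adipocyte-like nuclei. Egr3 was at 7 UMIs against 58 in endothelial-like nuclei, 5.63-fold higher in BAT. In mural-like nuclei the smooth muscle myosin Myh11 stood at 2010 against 3621 CPM (1.80-fold higher in BAT) and the carboxypeptidase Cpa6 was 3.54-fold higher in BAT. Macrophage-like nuclei, 174 and 50 in number, had 7 of 631 genes (1.11%) past 2-fold in taPVAT and 3 (0.475%) in BAT. At a clustering resolution of 0.5 these became 12 and 6 of 696. Ciita, the master regulator of MHC class II genes, was at 59 UMIs against 4 here, too few to be among the 631 genes. The class held 290838 UMIs in taPVAT and 96661 in BAT, so these raw counts overstate the difference in level. For the same reason genes high in taPVAT passed the minimum more easily in this class. Of the 23 genes past 2-fold over all nuclei in taPVAT that were kept in this class, 2 were past it within the class and 15 had the opposite direction.

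**Figure D5:**
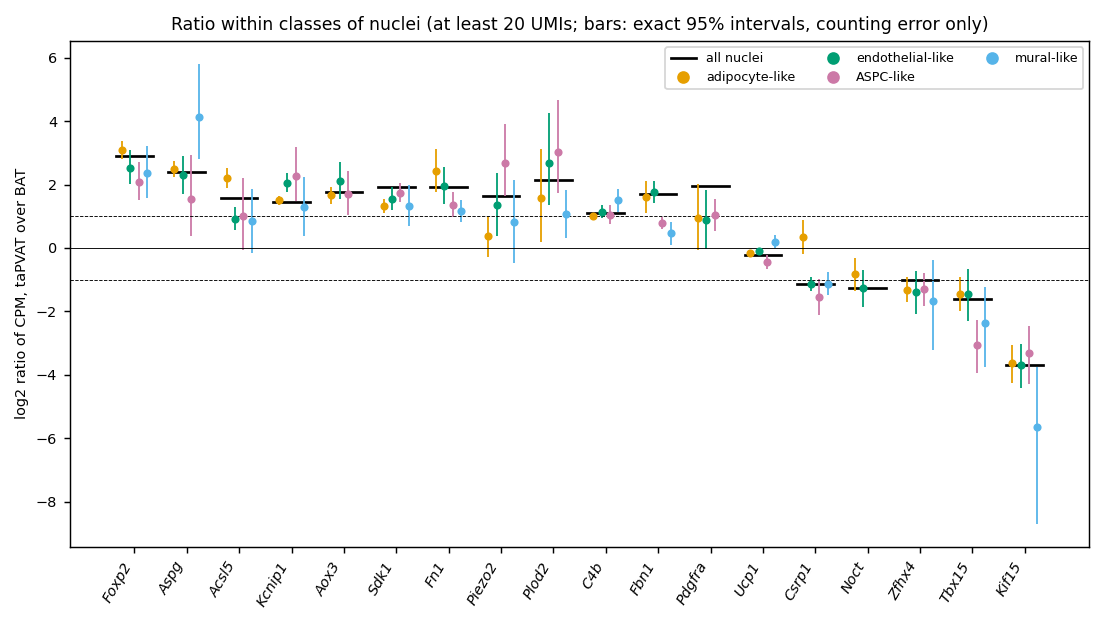
Log2 ratio of CPM (taPVAT over BAT) of 18 genes in adipocyte-like, endothelial-like, ASPC-like and mural-like nuclei, for values with at least 20 UMIs, with exact 95% intervals that cover counting error only; black bars give the ratio over all nuclei and dashed lines mark 2-fold. Foxp2 lies above 2-fold in all 4 classes and Ucp1 near 0, and Csrp1 lies below -1 in 3 classes but above 0 in adipocyte-like nuclei.

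Some of the largest ratios were carried by few nuclei. Over the 276 genes higher in taPVAT, the 10 busiest nuclei held a median of 21.5% of the taPVAT UMIs, against a median of 12.5% over all genes in the depot where each was higher. Only 7 of the 276 and 5 of the 31 had over 50% in 10 nuclei, and without the 10 top nuclei of each gene in each depot 268 of the 276 and 25 of the 31 were still past 2-fold. The cardiac myosin Myh6, the largest ratio of all, had 309 UMIs in taPVAT and 10 in BAT, 38.3-fold higher (20.5 to 80.6). Its busiest nucleus held 68 UMIs (22.0%) and 10 nuclei 70.6%, and its wells stood at 23.1, 35 and 116 CPM in taPVAT. The giant sarcomere protein Ttn, at 785 against 242 UMIs, had 24.7% in 1 nucleus and 69.4% in 10, with 314 CPM in taPVAT well 3 and 90.0 and 48.9 CPM in the others. Summed, the cardiac muscle markers were at 165 against 41.9 CPM, with Tnnt2 at 84 and 7 UMIs, Myl7 at 15 and 0, and Nppa at 0 in both. On the BAT side, Olr59 had 27.4% of its UMIs in 1 nucleus and 75% in 10, and Cdh6 19.3% and 51.8%. Of Myh6, 124 UMIs lay in endothelial-like and 77 in mural-like nuclei of taPVAT, and its source was not tested.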

How the data were processed

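Single-nucleus RNA was counted by the authors with the Parse split-pipe pipeline against GRCr8, and the filtered matrices were deposited as whole-number counts of UMIs per gene and nucleus. The submitters' processing notes name FastQC and Scanpy.

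From these, UMIs were summed over all nuclei of a depot and scaled by the depot's total. Ratios have exact conditional binomial intervals, sums exact Poisson and shares exact binomial (Clopper-Pearson) intervals, at 95%, for counting error only. No p-value was computed, since a depot was 1 library. Ratios were tested on simulated counts drawn with counting error only. That test cannot speak to spread between nuclei, wells or animals. The named genes were the 12 in each direction with the largest ratio by the interval bound nearest 1 (with a symbol, the same direction in both sublibraries, at most 5% of UMIs in 1 nucleus and 25% in 10), the 5 most abundant, the 5 past 2-fold most carried by 1 nucleus, up to 4 members a list, and the brown adipocyte markers. Some genes are not reported here. Members and lists were chosen with earlier results of these data known. The 5 most abundant (ENSRNOG00000087169, ENSRNOG00000086174, Utrn, Ebf1 and Itpr2) had log2 ratios from -0.35 to 0.01.

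Classes were made with scanpy 1.11.5 (2000 variable genes, 30 components, 15 neighbours, Leiden resolution 1.0) from nuclei with 100 to 15000 UMIs, at most 4500 genes and 3% mitochondrial UMIs, within 5 median absolute deviations. No doublet caller was run, so doublets remain. A class needed at least 3 raised markers. TMM factors came from edgeR. RefSeq gene lengths matched 9315 genes by symbol, and the median log2 ratio was 0.08, 0.05, 0.05 and 0.05 in gene length quartiles 1 to 4, from shortest to longest. Other libraries, alternative settings and what they changed are named where used.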

Additional observations from a re-analysis of the deposited data

How the results depend on the processing

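Counts past 2-fold depended most on the gene minimum. With at least 20 UMIs in the pair they were 1117 genes higher in taPVAT and 205 in BAT, of 18696 compared. With at least 500 they were 53 and 5 of 4361. With no minimum and 1 UMI added to each side they were 4927 and 1687 of 34223. The reported counts were out of 10399 genes. List members past 2-fold, 56 as reported, were 107, 18 and 172 in that order of settings. At 4-fold the counts were 21 and 2. TMM factors and median-of-ratios size factors moved the median log2 ratio to -0.056 and -0.10 and no minimum moved it to 0.16; genes higher in BAT were 51 with median-of-ratios factors, 49 within sublibrary 1, 70 within sublibrary 2 and 48 without first-round well 2 of taPVAT. The class shares of BAT in both depots gave 104 genes higher in taPVAT and 33 list members past 2-fold. The study's filters alone, which that setting also applied, gave 294 and 58. Naming each nucleus alone gave 122 of 8499 genes higher in taPVAT within adipocyte-like and 28 of 2328 within endothelial-like nuclei. It gave 32 of 630 within ASPC-like, 3 of 546 within mural-like and 1 of 99 within macrophage-like nuclei. Clustering without the genes past 2-fold gave 33 of 4401 within endothelial-like nuclei. Resolution 0.5 gave 12 higher in taPVAT and 6 in BAT, of 696 genes, within macrophage-like nuclei. Among named genes past 2-fold, Olr59 turned to a log2 ratio of 0.050 with the mean of the CPM of each nucleus, and ENSRNOG00000078188 to -0.018 without first-round well 2 of taPVAT. Values of named genes stayed within their counting interval in 2970 comparisons with an alternative and left it in 669. The 669 hold no reversal of a gene past 2-fold, but for other named genes a change of direction was not counted apart. Counts of list members stayed within 1.5 times in 1519 comparisons and moved further in 153. A count of 0 under both settings was taken as staying, and 21 of the 44 lists had no member past 2-fold as reported. The 1519 therefore say little about stability, and comparisons that began at 0 were not counted apart. The cause of these changes was not tested beyond what a setting does by construction. No paired analysis was possible because each depot was 1 library with the same replicate number. Genes under 100 UMIs in the pair or class were not counted as past 2-fold in the main results. Some single values under that minimum are given, such as Tbx15 in ASPC-like and Egr3 in endothelial-like nuclei. The depth of each depot limits what a low gene can show.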

Other observations

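Small clusters without a name, mostly from taPVAT, had genes of types that the report does not describe among their 10 leading genes. A cluster with Lilrb4, Csf1r and Itga4, genes of myeloid cells, had 99 nuclei in taPVAT and 30 in BAT. A cluster with Prox1, Mmrn1 and Ccl21, which lymphatic endothelium uses, had 29 and 3. A cluster with Krt19, Msln and Upk3b, genes of mesothelium, had 16 and 0, and the ASPC markers Bicc1 and Col3a1 were raised in it. A cluster with Pax5, Ighm and Pou2af1, genes of B cells, had 17 and 10. In that cluster 3 endothelial markers (Flt1, Cyyr1 and Pecam1) and 2 lymphocyte markers were raised. Nuclei of a Schwann-like cluster, led by Scn7a and Cadm2, ran the other way, at 18 in taPVAT and 43 in BAT (0.68% and 1.64% of nuclei), and Scn7a over all nuclei was 2.17-fold higher in BAT. These are counts in 1 library a depot, with no replicate check.

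Spsb1, a gene of the ubiquitin pathway, was noticed for its wells and not by the rule for named genes. It stood at 135, 15.4 and 27.8 CPM in the BAT wells and at 40.2, 72.6 and 24.8 CPM in the taPVAT wells, and its ratio over all nuclei was 0.78. BAT well 1, which was the highest of the 3 BAT wells for Spsb1, was also the well (78.2% of its UMIs in BAT) that held most UMIs of Kif15.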
